A study of Bubalus bubalis with 8 samples.

Results

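The genes described here encode the proteins of the mitochondrial ribosome. All probes outside the control spots whose gene name was MRPL or MRPS followed by a number were taken, which gave 143 probes for 75 of the 24839 gene names on the array, 46 of the large subunit (MRPL) and 29 of the small subunit (MRPS). Expression was measured in mammary epithelial cells (MECs) cultured from buffalo mammary gland, in unstressed cells kept at 37 °C (CTR) and in cells that spent 1 h at 42 °C and were returned to 37 °C, of which a sample was taken after 30 min and then after 2, 4, 8, 12, 16 and 24 h. Cells of passage 10 were used, each condition had 1 array, and the RNA of buffalo was hybridised to oligonucleotides designed on bovine sequence. The heat-stressed plate and the unstressed plate were separate plates, and no condition had a second array, so no test was possible and every difference below is a difference between 2 arrays.

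Mitochondria carry their own ribosome, which translates the few proteins encoded by mitochondrial DNA, all of them subunits of the respiratory chain and of ATP synthase. All of its proteins are encoded in the nucleus, made in the cytosol and imported. Some have homologues in the bacterial ribosome, while others are found in mitochondria alone. Some names follow an older assignment, since the products of MRPS30 and MRPS18A are now placed in the large subunit, and MRPS36 is now assigned to the 2-oxoglutarate dehydrogenase complex.

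The level of a probe is its log2 signal minus the 75th percentile of its array, and a change is the level at a time point minus the level in CTR. A gene with several probes was given by the probe that was well above background on the most arrays. Of the 75 genes, 74 had a probe well above background on at least 1 array. The exception was MRPS9, a small subunit protein, whose 4 probes were dim throughout. Outside a dark region of the CTR array, which is treated first, 57 genes (76% of the 75) were well above background on all 8 arrays, against 23.2% of all gene names. Values without a named time point are given in order of time, from 30 min to 24 h. The spread between spots of 1 probe gave a change an error of 0.25, 0.33, 0.33, 0.28, 0.32, 0.48 and 0.35 on the log2 scale. The 30 min levels were the deposited log2 values, whose array gave no usable marks, so detection there was set from the level and the spot error of CTR stood in. The error holds for spots on 1 array and leaves out the spread between cultures. CTR and the 8, 12 and 24 h samples shared 1 slide (slide 1), and the samples of 30 min and of 2, 4 and 16 h another (slide 2).

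The arrays of the 2 slides also differed in markers of other cells. The summed signal of 4 leukocyte markers, relative to the 75th percentile of the array, was between 3.69 and 5.16 on slide 1, and 72.8, 49.1, 11.1 and 13.2 on the successive arrays of slide 2. All 4 were well above background at 30 min and 2 h, but PTPRC alone at 4 h and 3 of them, without CD14, at 16 h. On the arrays of slide 1 this held for 1 or 2 of them. The summed signal of 4 milk protein genes was between 4.41 and 5.65 on slide 1, and 35.2, 26.8, 449 and 1013 on slide 2. Of the epithelial keratins, KRT5, KRT8, KRT14, KRT17 and KRT19 were well above background on all 8 arrays, whereas KRT18 was so on 2 arrays and the basal marker TP63 on none. The keratins detected on all 8 arrays were below CTR at 30 min, 2 h and 4 h, KRT8 by the most. KRT8 read 6.99 in CTR and 6.39 to 6.75 on the rest of slide 1, but 3.29, 4.37, 4.15 and 4.71 on slide 2. The luminal markers CDH1 and EPCAM, also detected on all arrays, did not follow KRT8. CDH1 was below CTR at 30 min and above it at 2, 4 and 16 h. EPCAM was below CTR from 30 min to 4 h, mostly at 30 min, and above it at 16 h. The summed signal of 5 luminal markers, mostly that of KRT8 and KRT19 in CTR, was 278 in CTR and 66.4, 96.8, 109 and 252 on slide 2. The sum of 4 basal markers was 469 in CTR and 173, 147, 252 and 352 on slide 2. The sum of 5 fibroblast markers was 185 in CTR, 124 to 170 on the rest of slide 1, and 119, 95.5, 52.2 and 73.6 on slide 2. Of these, COL1A2 and PDGFRA went the other way at 16 h, where they were detected and in CTR not. Of 3 endothelial markers, VWF was well above background on all 4 arrays of slide 2 and on none of slide 1, PECAM1 at 16 h and CDH5 on none. The part of these differences in the values below was not tested, and in whole cultures fewer cells of a type and less RNA per cell cannot be told apart.

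MRPL55, a protein of the large subunit, was read by a single probe whose spot lay in a region of the CTR array (rows 216 to 330, columns 30 to 59) that was dark there. Its 60 bases are shown because every value of the gene rests on them. They lie on bovine chr7:2914307-2914366 (plus strand, build Btau_3.1 by the file headers) and hold a reading frame from the first base to a stop codon, in capitals.
MRPL55: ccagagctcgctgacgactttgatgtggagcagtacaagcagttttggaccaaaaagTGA
The level of MRPL55 was -2.51 in CTR and 5.11, 4.82, 5.02, 4.72, 4.41, 5.11 and 4.73 after heat. The CTR value was the lowest on that array, a value shared by 23367 probes, and was not well above background. On the other 7 arrays the probe was well above background and varied by 0.70 in all. The bright probes within 10 spots of it read, at the median, 3.36 below their usual level in CTR (a local value of -3.36). No fold against CTR is therefore given for it.

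The region held 13 probes of 12 genes. MRPL55, MRPS12, MRPS18B and MRPS23 had probes nowhere else on the array. In CTR, 8 of the 13 probes were not well above background and 5 of them sat at the lowest value of the array, whereas 9 were well above background at all 7 time points. All 13 read higher at every time point than in CTR, and 5 of them (MRPL41, MRPL43, MRPL53, MRPL55 and the first MRPS12 probe) were detected and 3-fold or more above CTR each time, with a dim CTR value counted at the lowest detected level. Of the 130 member probes outside the region, 0 read 3-fold above CTR at all 7. The local value in CTR at the 13 spots ranged from -3.84 to -0.45, while its median over the other member probes was 0.25. Over the 7 time points the probes of the region that were detected throughout varied by a median of 0.66, and the 71 such probes outside it by 0.96. The region was set apart by position for being dark in CTR, so low CTR readings of its probes follow from that choice. The map of probe positions shows where they lay.

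**Figure D1:**
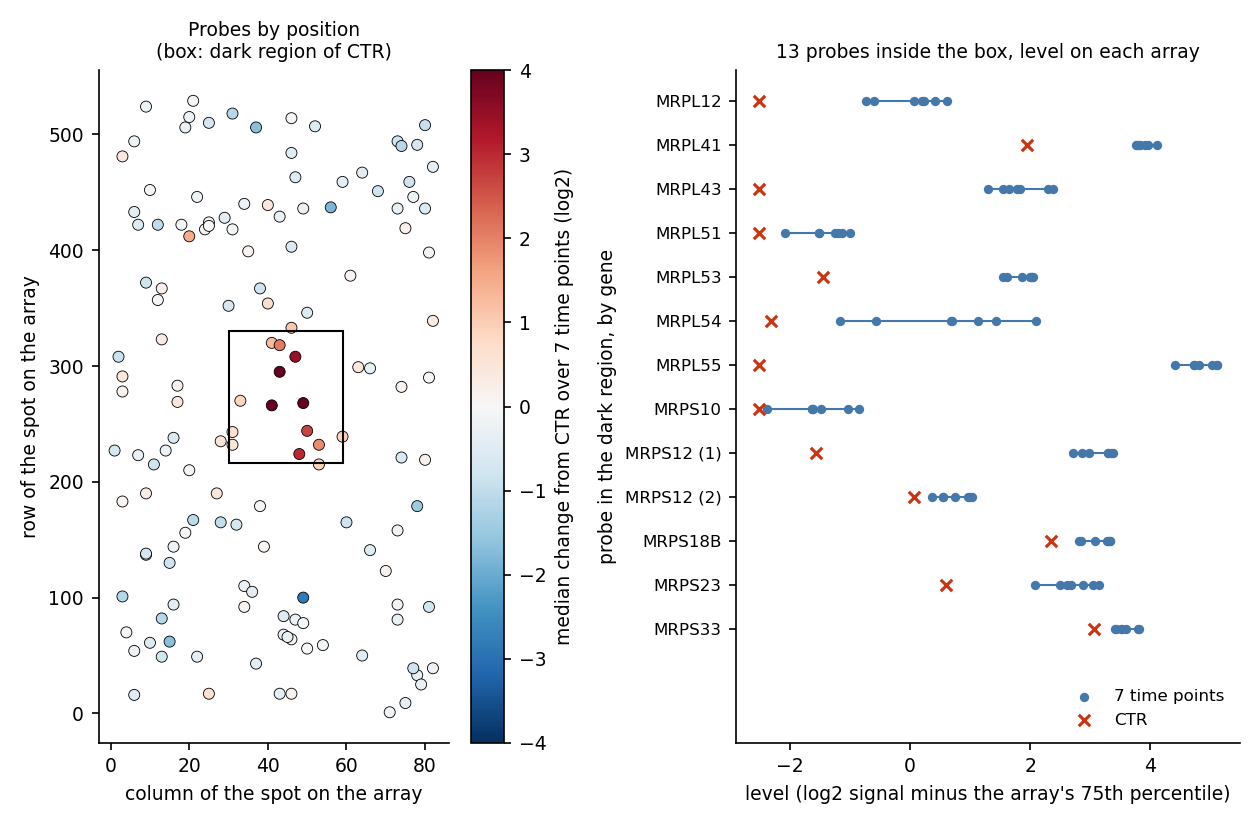
Left, the 143 probes by row and column of their spot on the array, coloured by the median change from CTR over 7 time points (log2, dim values as read), with the dark region of CTR as a box. Right, the level (log2 signal minus the 75th percentile of the array) of the 13 probes in the box in CTR (crosses) and at the 7 time points (points); all 13 crosses lie below the points, that of MRPL55 at -2.51 against 4.41 to 5.11.

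MRPS12 encodes a protein of the decoding centre of the small subunit, and both of its probes lay in the region. The first read -1.56 in CTR, where the local value was -3.84, and between 2.71 at 8 h and 3.39 at 30 min elsewhere. The second, at a spot with a local value of -0.81, read 0.07 in CTR and between 0.37 at 2 h and 1.03 at 4 h. The 2 probes of the same gene thus differed from CTR by very different amounts, the larger one where the array was darker. MRPS23, a small subunit protein without a bacterial homologue, read 0.60 in CTR and 2.61, 2.68, 3.15, 3.04, 2.50, 2.88 and 2.07. MRPS18B read 2.35 in CTR and between 2.81 at 16 h and 3.34 at 4 h.

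For 8 genes the region held 1 probe and the rest of the array another under the same name. MRPL41, a large subunit protein found in mitochondria alone, is the clearest case. Its probe in the region covers bovine chr11:109897732-109897791 (plus strand) and is shown because it can be set against a second probe of the gene.
MRPL41: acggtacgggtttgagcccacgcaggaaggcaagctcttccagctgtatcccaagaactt
This probe read 1.95 in CTR and between 3.76 and 4.11 at the 7 time points, with a median change of 1.89. The probe of MRPL41 outside the region read 5.44 in CTR and between 5.28 at 12 h and 6.15 at 16 h, with a median change of 0.10. The region probes of MRPL43, MRPL53, MRPL54, MRPL51 and MRPS10 were dim in CTR, so their levels are given and no change. That of MRPL43 read -2.51 in CTR and between 1.29 and 2.38 at the time points, while its probe detected on all 8 arrays had a median change of -0.28. That of MRPL54 read -2.32 in CTR and between -1.16 and 2.09, beside a median change of -0.04 elsewhere. MRPL53 read -1.46 in CTR and between 1.55 and 2.05 in the region, and its other 3 probes were well above background on at most 2 arrays. The region probes of MRPL51 and MRPS10 were dim on 6 arrays each, and the detected probes elsewhere had median changes of -0.41 and 0.20. MRPS33, detected in the region on all arrays, had a median change of 0.45 there and of 0.42 and -0.02 at its other 2 detected probes.

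MRPL12, which forms the mobile stalk of the large subunit, had 5 probes, and 3 of their sequences are shown because they do not lie at 1 place. A pair outside the region shares 53 of 60 bases (capitals) and lies on chr19:52607534-52607690 and chr19:52607527-52607683 (minus strand). The probe in the region maps 9324 bases away, to chr19:52598210-52598268 (minus strand), under the same gene name, and whether it reads the same transcript was not tested.
MRPL12 first: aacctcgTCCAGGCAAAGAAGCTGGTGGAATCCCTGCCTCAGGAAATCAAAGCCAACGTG
MRPL12 second: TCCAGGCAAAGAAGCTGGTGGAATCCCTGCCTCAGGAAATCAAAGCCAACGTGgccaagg
MRPL12 in the region: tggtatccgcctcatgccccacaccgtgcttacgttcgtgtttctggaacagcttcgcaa
The first of the pair read 1.83 in CTR, then 0.95, 1.31, 1.48, 1.44, 1.77, 1.59 and 0.30. The second read 1.29 in CTR, then 0.85, 0.78, 1.05, 0.83, 1.24, 0.07 and 1.04. Their median changes were close (-0.39 and -0.44), but they disagreed by 1.28 at 24 h, where the first was lowest, and the second was lowest at 16 h. The lowest array of each probe was thus not that of the other.

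The median change of the mitochondrial ribosomal protein genes lay close to that of all genes at every time point. The remaining results use the probes outside the region. Genes were taken as measured where their probe was well above background in CTR and at the time point. The median change of the 60 to 68 members measured was -0.32, -0.29, -0.08, -0.12, -0.22, -0.13 and -0.19. Over all measured genes it was -0.21, -0.35, -0.12, -0.10, -0.29, 0.03 and -0.12. The members' median therefore lay between 0.16 below (16 h) and 0.07 above (12 h) that of all genes. The sign of the members' own median depended on the scaling. When the local value of each array was subtracted it was 0.06, 0.14, 0.11, 0.07, 0.12, -0.03 and 0.00, and the median of all genes shifted as well. The difference from all genes then lay between -0.11 at 16 h and 0.17 at 4 h.

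Changes of 3-fold were rare among the members measured on both arrays, a filter that leaves out genes that became dim. Each gene counted by 1 probe, so a second MRPL17 probe with a change of 1.78 at 30 min is not included. At 30 min, 0 members were higher and 1 was lower, against 3.24% higher and 4.65% lower of all measured genes. At 2 h, 0 were higher and 1 lower (background 2.45% and 8.61%), and at 4 h, 0 were higher and 2 lower (1.84% and 4.87%). At 8 h and 12 h there were 0 in either direction (background 0.405% higher and 0.126% lower at 8 h, 0.0534% and 0.507% at 12 h). At 16 h, 0 were higher and 1 lower (3.21% and 2.94%), and at 24 h there were 0 in either direction (0.0623% and 0.343%). Counting also the genes that were dim at the time point with a bound of at least 3-fold, of the 68 members detected in CTR 2 were lower at 30 min, 2 h and 4 h alike, against 5.33%, 11.0% and 7.0% of all genes detected in CTR. None were lower at 8 h, 12 h or 24 h (background 0.21%, 0.697% and 0.672%). At 16 h 7 of 68 (10.3%) were lower, beside 8.38% of all genes.

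**Figure D2:**
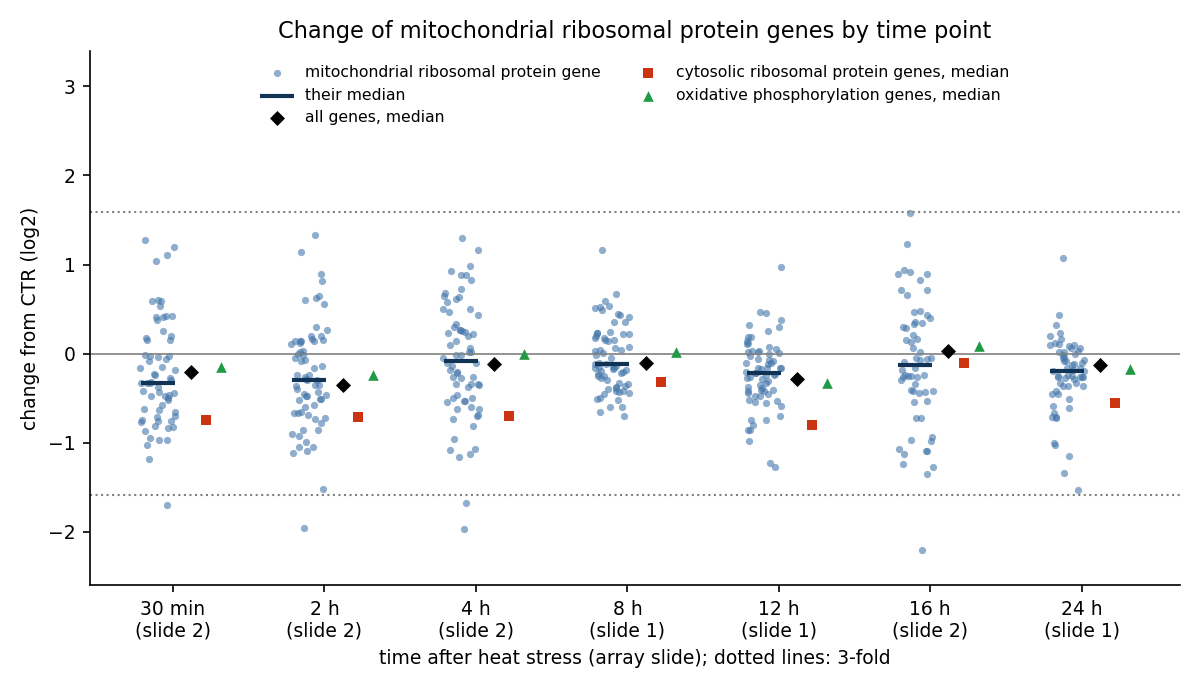
Change from CTR (log2) of each measured mitochondrial ribosomal protein gene (points) at 7 time points, with their median (bar) and the medians of all genes, cytosolic ribosomal protein genes and oxidative phosphorylation genes; dotted lines mark 3-fold and labels give the slide. The bars lie within 0.16 of the diamonds of all genes, and 5 points in all lie below the lower dotted line.

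Of the other groups of related genes, the cytosolic ribosomal protein genes lay farther below all genes and the oxidative phosphorylation genes about as close to them as the members. The cytosolic ribosomal protein genes (RPL and RPS, 83 names), which build the ribosome of the cytosol, had medians of -0.74, -0.71, -0.70, -0.31, -0.80, -0.11 and -0.55, each between 0.14 (16 h) and 0.59 (4 h) below that of all genes. The nuclear genes of oxidative phosphorylation subunits (82 names), which work with the products of the mitochondrial ribosome, had medians of -0.15, -0.24, 0.00, 0.02, -0.33, 0.09 and -0.17, within 0.12 of all genes. Among genes detected on all 8 arrays, 13 of 57 members (22.8%) were below CTR at all 7 time points and 2 (3.51%) above, beside a background of 19.6% and 9.4%. Those above were MRPL10 and MRPL38, each by the probe detected on all arrays. Of the other MRPL38 probes, one detected on 6 arrays was below CTR at all 7 time points (-2.09 at 30 min to -0.31 at 16 h), as was one detected on 4 arrays, and one detected on 7 arrays lay on both sides of CTR (-0.91 at 2 h to 0.62 at 16 h). Of the 71 cytosolic ribosomal protein genes 32 were below CTR throughout and 0 above, and of the 70 oxidative phosphorylation genes 11 and 3. The level of a member varied over the 8 arrays by a median of 1.03 (2.04-fold), compared with 1.18 for all genes and 0.81 for the oxidative phosphorylation genes. Among these 57 members, each given by 1 probe, MRPL17 varied least (0.43) and MRPS16 most (2.36). A second MRPL17 probe, detected on 6 arrays, was not steady. It read -0.17 in CTR, 1.61 at 30 min, 1.22 at 2 h and -0.69 at 12 h, and was dim at 16 h and 24 h.

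The medians of the large and small subunit genes differed (MRPL minus MRPS) by -0.32, -0.24, -0.11, -0.02, 0.16, 0.03 and 0.10. Under all settings tried the sign was negative at 30 min and 2 h and positive at 12 h and 24 h, but it turned at 4 h (-0.24 to 0.07), 8 h (-0.09 to 0.04) and 16 h (-0.19 to 0.20). At 30 min 41 MRPL genes had a median of -0.38 and 23 MRPS genes one of -0.06. By structure, the large subunit proteins with a bacterial homologue had medians of -0.33 at 30 min and -0.08 at 24 h, and those found in mitochondria alone -0.53 and -0.22. For the small subunit these were -0.05 and -0.33 with a homologue, and -0.30 and -0.15 without.

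**Figure D3:**
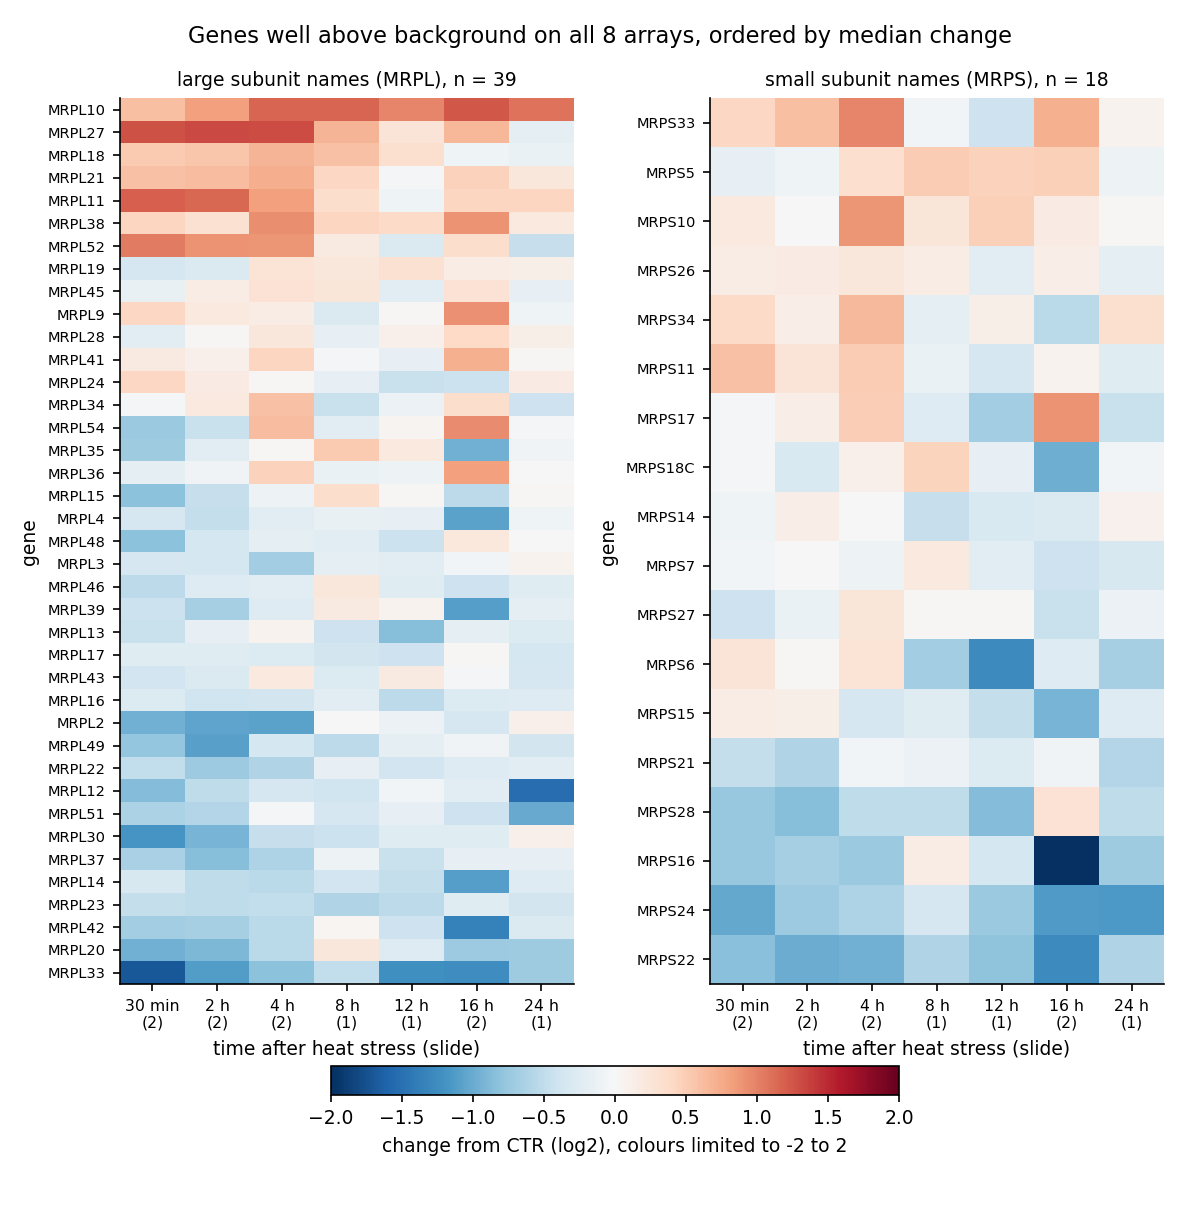
Change from CTR (log2, colour) at 7 time points for the 39 MRPL and 18 MRPS genes well above background on all 8 arrays, ordered within each panel by the median change, with the slide in brackets. MRPL10 and MRPL27 head the left panel and MRPL33 closes it, and the darkest cell is MRPS16 at 16 h (-2.21).

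Among the 57 genes detected on all 8 arrays, those with the highest median changes as scaled all belonged to the large subunit: MRPL10 (1.08), MRPL27 (0.67), MRPL18 (0.53), MRPL21 (0.47) and MRPL11 (0.44). The local values of these spots in CTR were all negative, from -0.69 (MRPL10) to -0.16 (MRPL21). With local values subtracted the order changed and held both subunits. The highest were then MRPS17 (1.135), MRPL9 (0.79), MRPS11 (0.62), MRPL38 (0.605) and MRPS33 (0.60), with MRPL27 at 0.475 and MRPL18 at 0.02. MRPL27 is a homologue of a bacterial protein near the peptidyl transferase centre. With 1 probe per gene, it had as scaled the highest change of all members at each of the first 3 time points. Second probes gave higher changes, that of MRPL17 at 30 min (1.78) and 2 h (1.39) and that of MRPL18 at 30 min (1.39). The level of MRPL27 was 3.65 in CTR and 4.93, 4.98, 4.95, 4.33, 3.91, 4.31 and 3.46 after heat. The first 3 time points were close to each other and above all other arrays. They were also above 16 h on the same slide, by 0.62 at 30 min and 0.67 at 2 h, and on slide 1 the 8 h level was 0.86 above that of 24 h. The local value of its spot in CTR was -0.36, and with local values subtracted its first 3 changes were 1.08, 0.87 and 0.67. Other members were then higher at each of these 3 time points, among them MRPS18A (1.68, 1.26 and 1.11) and MRPS17 (1.135, 1.19 and 1.22).

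MRPL18 belongs to a family whose bacterial member binds 5S rRNA, and a cytosolic form of it made during heat shock has been described. Both of its probes were higher from 30 min to 12 h than in CTR, 16 h and 24 h. The probe detected on all 8 arrays read 2.44 in CTR, then 2.97, 2.99, 3.13, 3.03, 2.76, 2.35 and 2.31. The other read 0.18 in CTR, 1.57, 1.38, 1.02, 1.30 and 1.07 from 30 min to 12 h, and was dim at 16 h and 24 h. The probes share 37 bases, so they are not independent sequences, and both spots lay at the edge of the dark region, with local values of -0.34 and -0.63 in CTR. The order did not rest on CTR alone, since the level at 30 min was 0.62 above that of 16 h on slide 2 and the level at 8 h 0.72 above that of 24 h on slide 1. With local values subtracted the change from CTR was 0.39, 0.34, 0.11, 0.02 and -0.10 from 30 min to 12 h.

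MRPL10 and MRPL11, which sit at the base of the stalk that MRPL12 completes, followed different courses. MRPL10 read 3.23 in CTR, then 3.83, 4.05, 4.40, 4.39, 4.21, 4.47 and 4.31. Here CTR was below every other array, and as scaled MRPL10 had the highest change of all members at 8 h (1.16), 12 h (0.98) and 24 h (1.08). Its spot lay just past the edge of the dark region with a local value of -0.69 in CTR, and its changes with local values subtracted ranged from 0.00 at 8 h to 0.50 at 16 h. A second MRPL10 probe, at a distance from the region, read 0.52 in CTR and was below that on 6 of the 7 other arrays, down to -1.07 at 4 h, with 2 of them dim. MRPL11 read 1.41 in CTR, then 2.61, 2.56, 2.24, 1.77, 1.33, 1.85 and 1.85. The 3 earliest time points were the highest, on the slide that CTR was not on. The local value of its spot in CTR was -0.42, and with local values subtracted its first 3 changes were 0.82, 0.73 and 0.14. A second MRPL11 probe, detected on 5 arrays, differed from CTR by -0.12, -0.10 and -0.19 at these time points. MRPL21 read 3.15 in CTR and between 3.12 at 12 h and 3.87 at 4 h. Its second probe, also detected on all 8 arrays, had a median change of the other sign, -0.13, with -0.49 at 12 h and 0.12 at 16 h.

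Among the same 57 genes, the lowest median changes as scaled were those of MRPL33 (-1.12), MRPS22 (-0.84), MRPS24 (-0.75), MRPS16 (-0.72) and MRPL20 (-0.71). With local values subtracted MRPL2 was lowest (-0.92, against -0.34 as scaled). MRPL33, a small protein with a bacterial homologue, read 4.33 in CTR, then 2.63, 3.21, 3.52, 3.83, 3.11, 3.097 and 3.62. CTR was above every other array, and 30 min was the lowest, with a change of -1.70 that was past 3-fold. With local values subtracted this change was -0.84. MRPS22, found in mitochondria alone, read 1.22 in CTR and between -0.06 at 16 h and 0.62 at 8 h. MRPS24 read 2.21 in CTR and between 1.06 at 24 h and 1.87 at 8 h. For all 3 genes CTR was the highest array as scaled, and their spots had local values of 0.47, 0.44 and 0.25 in CTR. With local values subtracted MRPS22 differed from CTR by 0.05 at 8 h and -0.03 at 12 h, and the median changes were -0.42 for MRPL33, -0.37 for MRPS22 and -0.48 for MRPS24. Of the genes dim on an array, MRPS30 and MRPS36 had median changes of -1.68 and -1.03, which a dim array at its bound does not move.

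MRPS16, whose bacterial homologue takes part in small subunit assembly, read 2.33 in CTR, then 1.57, 1.66, 1.59, 2.48, 1.98, 0.12 and 1.61. The 16 h array stood apart, 3-fold below CTR (-2.21), and the 30 min level was 1.45 above that of 16 h on the same slide. With local values subtracted the change at 16 h was -1.58. MRPL20 read 4.29 in CTR, between 3.32 and 3.75 on the 4 arrays of slide 2, and 4.52, 4.03 and 3.58 on the later arrays of slide 1. With local values subtracted its median change was -0.16, with 0.53 at 8 h and 0.20 at 12 h.

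MRPS30 and MRPL1 were the other members that passed 3-fold where measured on both arrays. MRPS30 read 1.73 in CTR, then -0.19, -0.23, 0.05, 2.22, 1.65, -0.14 and 0.39. Its change was -1.96 at 2 h and -1.68 at 4 h. It was dim at 30 min, where it was at least 3.49-fold lower than CTR, and at 16 h, where it was at least 3.65-fold lower. All 4 arrays of slide 2 were thus below all 4 of slide 1, and on slide 1 the 8 h level was 1.83 above that of 24 h. MRPL1, of the mobile stalk near the exit site, read 0.30 in CTR and was measured at 4 h (-1.66) and 12 h (-0.67), with a change of -1.97 at 4 h. It was dim at the other time points, with a bound of at least 5.83-fold lower at 2 h. With local values subtracted the changes at 4 h were -1.23 for MRPS30 and -1.73 for MRPL1.

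A dim array gave a bound in other genes too, mostly at 16 h and 24 h, when 8 of the 68 genes detected in CTR (11.8%) were not well above background, against 16.2% of all genes at 16 h and 15.4% at 24 h. At 16 h the bound was at least 3-fold for 6 of the 68 (8.82%), against 5.91% of all genes: MRPL1 (at least 3.04-fold lower), MRPL32 (3.39), MRPL47 (3.64), MRPL50 (4.18), MRPS30 (3.65) and MRPS36 (14.1). At 24 h 0 bounds reached 3-fold, and the lowest detected level there, at -0.075, was higher than the -1.30 of 16 h. MRPS36 read 2.67 in CTR, between 1.51 and 2.55 on the arrays from 30 min to 12 h, -1.15 at 16 h and 1.64 at 24 h. MRPL53 and MRPS35 were detected at 2 h and not in CTR, with no bound of 3-fold.

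**Figure D4:**
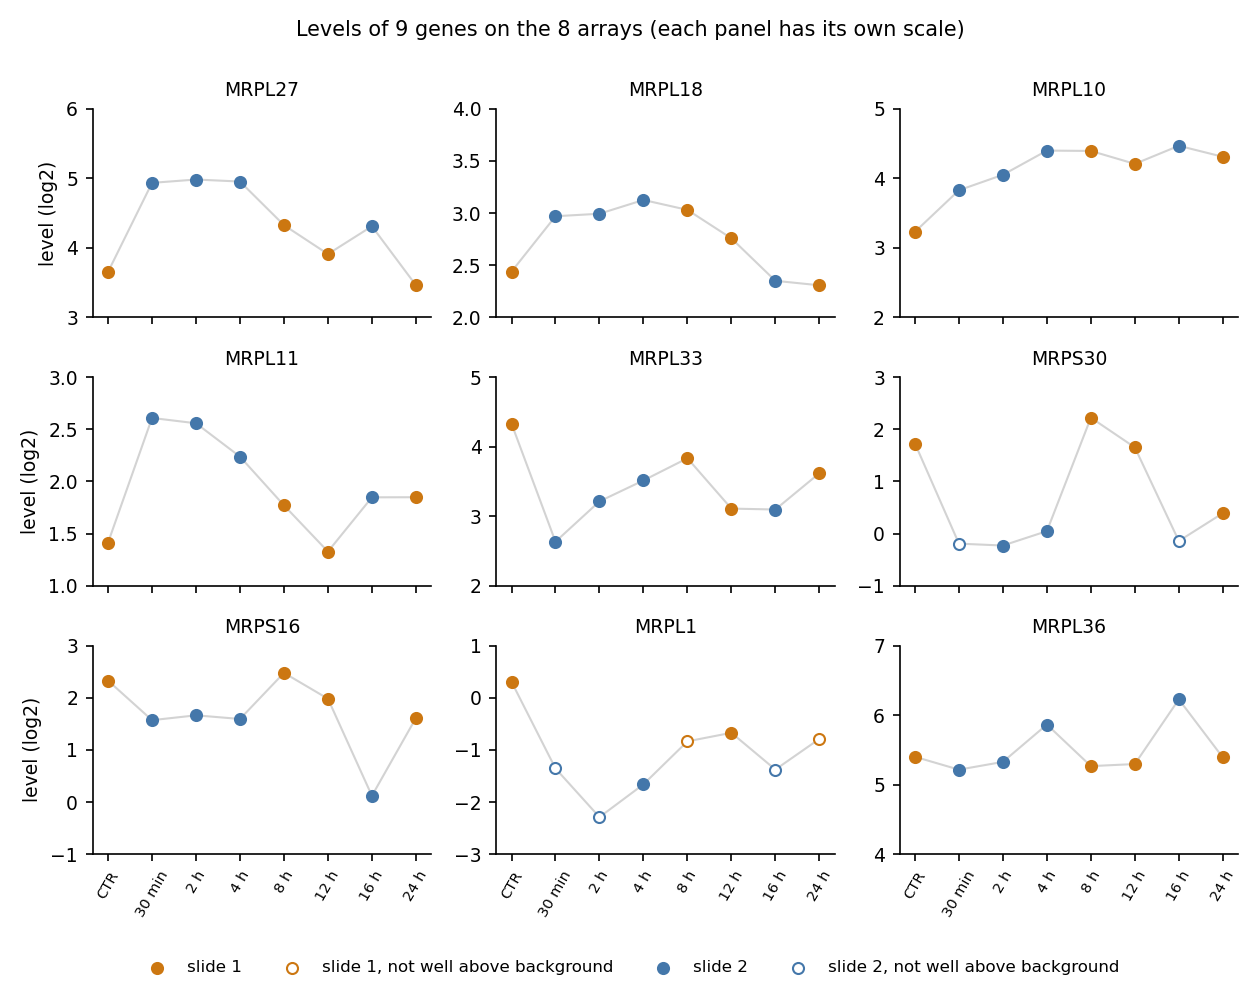
Level (log2 signal minus the 75th percentile of the array) of 9 genes on the 8 arrays, coloured by slide, with open points where the probe was not well above background and a separate scale in each panel. MRPL27 was highest at the first 3 time points (4.93 to 4.98), MRPS30 was lowest on the 4 arrays of slide 2, and MRPS16 was lowest at 16 h (0.12).

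The remaining extremes occurred on single arrays. MRPS18A was highest of all members at 16 h, with a change of 1.58, just under 3-fold, and read -0.13 in CTR, then 0.98, 0.51, 0.51, -0.09, -0.14, 1.45 and, where it was dim, 0.02. Its 4 levels on slide 2 were above all of slide 1, and with local values subtracted its change at 30 min was 1.68, past 3-fold. MRPS6 was lowest at 8 h (-0.70) and 12 h (-1.27), and read 0.94 in CTR, then 1.20, 0.97, 1.22, 0.25, -0.32, 0.69 and 0.28. The brightest member probes in CTR, whose order says nothing of the order of the genes, were those of MRPL41, MRPL36, MRPS27, MRPS26 and MRPL33. MRPL36 read 5.40 in CTR, 5.86 at 4 h, 6.23 at 16 h and between 5.21 and 5.39 on the others. MRPS27, a protein with pentatricopeptide repeats, kept between 4.65 and 5.33 on all arrays, and MRPS26 between 4.22 and 4.65.

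Because slide and time were joined, levels were also compared within a slide. On slide 1, which held CTR, the medians of its other 3 arrays are those already given. On slide 2 the members' median relative to 16 h was -0.24, -0.14 and 0.23 at the first 3 time points, beside -0.26, -0.36 and -0.11 for all genes. Against 24 h, the members stood at 0.10 at 8 h and -0.05 at 12 h, and all genes at 0.07 and -0.14. The members were thus above all genes by the most at 4 h. Of the 57 members detected on all arrays, 6 (10.5%) had all slide 2 levels above all slide 1 levels and 6 below, close to the 11.6% above and 11.7% below of all genes. Those above were MRPL9, MRPL21, MRPL41, MRPL52, MRPS11 and MRPS33. Those below were MRPL2, MRPL4, MRPL15, MRPL39, MRPL42 and MRPS22. MRPL52 differed most among the former, with 2.05 to 2.74 on slide 2 and 1.24 to 1.88 on slide 1, and MRPL2 among the latter, with 2.15 to 2.89 and 3.11 to 3.32. For these genes slide, time and the markers of other cells cannot be told apart.

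Probes of 1 gene were compared where a gene had more than 1 probe outside the region and detected on all 8 arrays. In these 12 genes the median changes of the probes differed by a median of 0.34 and at most 0.60 (MRPL21), and 0 genes differed by over 1. On single arrays the probes differed more, by up to 1.46 for MRPL19 at 16 h. Genes with a probe that was dim on some array are left out here. The 2 MRPL10 probes, for example, changed by 1.17 and -1.60 at 4 h. The bases of the probes gave no contrast, with a median GC content of 45% for the members and for all probes.

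The other genes of mitochondrial translation passed 3-fold at shares near those of all genes, but their median lay below that of all genes at most time points. Of 65 listed genes on the array (ribosomal proteins with other names, translation factors, assembly factors, aminoacyl-tRNA synthetases and factors of mitochondrial DNA expression), 25 were detected on all 8 arrays. The median change of the 28 to 39 measured was -0.55, -0.61, -0.27, -0.16, -0.27, -0.50 and -0.10. Over all genes it was -0.21, -0.35, -0.12, -0.10, -0.29, 0.03 and -0.12. The listed genes thus lay below all genes from 30 min to 8 h and at 16 h, each time with a lower median than the members. At 12 h and 24 h they lay slightly above all genes. Of those measured, 0 were 3-fold higher at any time point. At 2 h 3 of 39 were 3-fold lower (8.61% of all genes), at 4 h 1 of 39 (4.87%) and at 16 h 1 of 28 (2.94%), and at the other 4 time points 0. With bounds counted, 4 of 39 were lower at 16 h (10.3%, against 8.38%). LRPPRC, which stabilises mitochondrial messenger RNAs, was the gene at 4 h and 16 h and 1 of the 3 at 2 h, with 3.19 in CTR, then 1.94, 1.48, 1.53, 3.23, 2.74, 1.46 and 2.67. It was lower on slide 2 than on slide 1, whereas its partner SLIRP kept between 4.41 and 5.23. The other 2 were TFB1M, which methylates the rRNA of the small subunit, with a change of -1.62 at 2 h, and MTFMT, which formylates the initiator tRNA, with -1.65. In CTR the local values were 0.44 for LRPPRC, 0.32 for TFB1M and 0.28 for MTFMT, which was detected on 4 arrays. No change with local values subtracted is given for them.

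The genes of the mitochondrial ribosome that have other names, of which 4 to 6 were measured, had medians between -0.59 at 2 h and -0.03 at 24 h. DAP3, a small subunit GTPase, changed by -0.79 at 30 min and 0.13 at 24 h, PTCD3 by -1.03 at 30 min and -1.11 at 16 h, and GADD45GIP1 by 0.69 at 16 h. The synthetases, of which 7 to 13 were measured, had medians of -0.75, -0.73, -0.60, -0.26, -0.24, -0.61 and -0.10, below those of all genes except at 12 h and 24 h. TUFM, the elongation factor that brings tRNA to the mitochondrial ribosome, kept between 3.60 and 4.10 on all 8 arrays.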

How the data were processed

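MECs were profiled on bovine 4x44K arrays with 1 colour (Cy3). The authors deposited the processed intensity of each spot from Feature Extraction, and the mean and background intensities beside it, without scaling between arrays. The authors also deposited log2 values that GeneSpring GX had scaled by a 75th percentile shift and then centred on each probe's median. Deposited marks of background and outliers were used as given.

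Intensities were taken to log2, scaled to the 75th percentile of the 43653 probes outside control spots, and averaged over spots without an outlier mark. At 30 min the deposited log2 values were used, since the scanner intensities departed from them (median 2.32, SD 2.16). On the other arrays the median was at most 0.02 and the SD at most 0.05. There a probe counted as detected at the highest limit of the other arrays (-0.075), and the spot SD of CTR stood in. That percentile lay between 120.6 (16 h) and 423 (12 h), and at 48.6 in the 30 min scan. Probes well above background made up 23.3% (24 h) to 40.2% (2 h). The number of arrays limits the precision.

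Local values are the median, over at least 5 bright probes within 10 spots, of the difference from the other arrays. For a dim array the higher of the probe's own level and the lowest detected level gave the bound. Genes were named by a rule: MRPL55, MRPS12 and MRPL18, members with a probe in the dark region, members changed 3-fold, the 5 highest and 5 lowest median changes, the 5 brightest probes in CTR, and the extremes at each time point. MRPL52, MRPL2, MRPL17, MRPL38, MRPS36 and the other genes with a bound were named after their values were seen. So were the genes highest with local values subtracted and the genes outside the members. The members and lists were chosen with earlier results of these data known. Of the 75 names, 72 are symbols in the buffalo RefSeq table (NDDB_SH_1). Alternatives were normexp correction (offset 50) and quantile normalization in limma 3.58.1, other scalings, filters, probe choices and a 2-fold cutoff; leaving out the edge of the dark region and subtracting local values were added after seeing the data. The steps were tested on simulated data. Python 3.11.15 was used.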

Additional observations from a re-analysis of the deposited data

How the results depend on the processing

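No paired analysis was possible because each condition had 1 array, so no fit with a replicate block exists. Of 72 medians under alternatives, 65 moved by less than the error between spots. That error is the error of 1 gene and was larger than the members' median at every time point but 30 min, so a lost or turned sign could pass. The 12 h median, for example, went from -0.218 to 0.013 with the median of bright probes as scale. The values within slide 1 repeat the main ones and could not move. Normexp correction gave 0.268 at 2 h, 0.423 at 4 h, and 0.15 for the 12 h array, and 0.414 for 2 h against 16 h. Subtracting local values gave 0.059, 0.14 and 0.116 for the 30 min, 2 h and 12 h arrays. The 30 min scanner intensities gave 2.526 at 30 min, 2.871 against 16 h, and 35 genes changed 3-fold. With these intensities the median of all genes was 2.477, itself past 3-fold, so the count is not particular to the members. The members' median minus that of all genes kept between -0.19 and 0.17 under the 11 alternatives that give it. All 69 differences between subunits moved by less than the error between spots, but their sign turned under at least 1 alternative at 4 h, 8 h and 16 h. Scaling by bright probes shifts all genes of an array alike and could not move these differences.

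Of 76 counts of genes changed 3-fold, 56 stayed within 1.5 times. At 16 h normexp correction gave 0, the median of bright probes 2 (1 of them higher) and local values 0. At 30 min the median of bright probes gave 0. Genes detected on all arrays gave 0 at 2 h and 4 h, and local values 0 at 2 h. With the dark region kept 2 genes passed on the 30 min, 2 h and 16 h arrays, and 1 on those of 8 h and 12 h. In order of time, a 2-fold cutoff gave 7, 8, 8, 1, 2, 10 and 6. Of these, 4, 2, 2, 1, 0, 2 and 1 were higher. The share of measured members 2-fold lower was below that of all measured genes from 30 min to 12 h. It was above that of all genes at 16 h and 24 h. The share 2-fold higher was below that of all genes at every time point but 24 h, where it rested on 1 member. Normexp correction turned the split, with 1 higher and 0 lower at 2 h and 2 higher and 0 lower at 4 h, and the cause was not tested. Comparing within a slide gave no value against CTR for slide 2, which held no CTR array.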
